A study of Homo sapiens with 15 samples.

Results

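Thrombomodulin, the receptors that thrombin and related proteases cut, and tissue factor with its inhibitors were followed in RNA-seq libraries of senescent human cells. The 10 genes were THBD (thrombomodulin), PROCR (endothelial protein C receptor), PROS1 (protein S), the protease-activated receptor genes F2R, F2RL1, F2RL2 and F2RL3, F3 (tissue factor), TFPI and TFPI2 (tissue factor pathway inhibitors). They were taken by symbol, and all 10 were listed in both deposited tables, out of 59428 genes for IMR90 and 59412 genes for Huh7. The study asked whether THBD is needed when cells become senescent. IMR90 is a lung fibroblast line, and the treatment labels of all 9 of its libraries name senescence induced by HRAS G12V, an activated form of a growth-signalling GTPase. Replicative senescence of this line, reached by long passage, is also described in the growth protocol, but no label ties a library to it. Of these, 3 were labelled as THBD knockdown in a set that the titles number 1, 3 as knockdown in a set numbered 2, and 3 had a short hairpin RNA without a target (control). Huh7 is a hepatocyte-derived carcinoma line, and all 6 of its libraries came from cells made senescent with palbociclib, an inhibitor of the cell-cycle kinases CDK4 and CDK6. Of these, 3 were infected with a hairpin against THBD (shTHBD) and 3 with a non-targeting control. By their labels all groups were therefore senescent and carried a hairpin, so each comparison is between hairpins and not between senescent and growing cells. The labels do not say what the set number stands for, nor whether replicates were separate cultures, so p-values measure the spread between these libraries, which may be technical.

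Thrombomodulin is a membrane protein best known from the vessel wall. It binds thrombin, stops it from clotting fibrinogen and turns it into the activator of protein C, a step that the endothelial protein C receptor speeds up and whose product works with protein S as cofactor. Protease-activated receptors are G-protein-coupled receptors that carry their own ligand, which is bared when a protease cuts their outer end. F2R encodes PAR1, the main thrombin receptor of fibroblasts, F2RL1 encodes PAR2, cut by trypsin-like proteases and by the tissue factor complex, and F2RL2 and F2RL3 encode PAR3 and PAR4, both cut by thrombin. Tissue factor starts clotting by binding factor VII, and TFPI shuts that complex down.

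Each IMR90 library held between 18256773 and 21509229 counts in genes. Huh7 libraries held 22479132 to 25236178 with shTHBD and 19328182 to 20020683 in control. All 8 fibroblast markers reached 1 CPM (counts scaled by the library's total) in each IMR90 group, and all 8 hepatocyte markers did so in each Huh7 group. The summed fibroblast markers were at 1946 to 2004 CPM in the libraries labelled set 1, 9151 to 9238 CPM in set 2 and 3407 to 3421 CPM in control. In the libraries labelled set 1, 6 of the 8 had a lower mean than in control. PDGFRA (203 CPM in set 1, 141 CPM in control) and PDGFRB (78.2 CPM in set 1, 64.6 CPM in control) had higher ones. In set 2 the collagens carried the sum, with COL1A1 at 4397 CPM in set 2 and 1744 CPM in control and COL1A2 at 3528 CPM in set 2 and 785 CPM in control. THY1 (206 CPM in set 2, 376 CPM in control), PDGFRB (51 CPM in set 2, 64.6 CPM in control) and PDGFRA (92.6 CPM in set 2, 141 CPM in control) had lower means in set 2. The summed hepatocyte markers of Huh7 were at 4275 to 4348 CPM with shTHBD and 5615 to 5844 CPM in control. Of the 8 hepatocyte markers, 6 had a lower mean with shTHBD, among them APOB (267 CPM with shTHBD, 1075 CPM in control), TTR (666 CPM with shTHBD, 1198 CPM in control) and ALB (15.4 CPM with shTHBD, 37.3 CPM in control), and FGB and APOH had a higher one. The part of these shifts in the results was not tested. Of the 8 endothelial markers, which mark the best known site of thrombomodulin, PECAM1, CDH5, KDR, EMCN and ERG stayed under 1 CPM in each IMR90 group. TEK averaged 2.42 CPM in the libraries labelled set 1, 3.09 CPM in set 2 and 3.29 CPM in control. VWF averaged 1.16 CPM in the libraries labelled set 1, 3.31 CPM in set 2 and 3.31 CPM in control. TIE1 made up nearly all of their sum, at 342 CPM in the libraries labelled set 1, 101 CPM in set 2 and 162 CPM in control. Leukocyte markers summed to no more than 5.45 CPM in any IMR90 library. The description of set 2 replicate 3 names Huh7, although the cell line, tissue and treatment given for it are those of IMR90. No set 2 library had more than 4.23 CPM of summed hepatocyte markers, and without replicate 3 the 9 genes other than F2RL3 remained called in set 2, with THBD at a log2 fold change of −0.83 and F3 at 1.71. In such bulk samples, fewer cells that express a gene and less RNA per cell cannot be told apart.

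In IMR90, tissue factor rose in both sets labelled as THBD knockdown while the thrombin receptor gene F2R and the PAR2 gene F2RL1 fell. In Huh7 tissue factor fell while F2R rose. Thrombomodulin itself was above control in the libraries labelled set 1, below control in set 2, and close to absent in Huh7. With edgeR's quasi-likelihood test and Benjamini-Hochberg adjustment over all genes tested, 8 of 9 genes passed an adjusted p of 0.05 in the libraries labelled set 1 against control, where 53.8% of 15411 genes passed. F2RL3 is left out of the IMR90 counts, because it passed the filter on low counts only through the libraries labelled set 1, where it was highest. THBD, F3, TFPI and TFPI2 were higher, PROCR, F2R, F2RL1 and F2RL2 were lower (27.3% of all genes were higher and 26.5% lower), and PROS1 did not pass. In set 2 against the same controls all 9 passed, at a background of 67.3%. Here F2RL2, F3 and PROS1 were higher and the other 6 lower (33.2% and 34.1% of all genes). In Huh7, 8 of the 10 genes had enough counts to be tested and 7 of these passed, where 53.1% of 17474 genes passed. F2R and F2RL2 were higher, PROCR, F3, TFPI, TFPI2 and PROS1 were lower (25.9% and 27.3% of all genes), and F2RL1 did not pass. The median log2 fold change over these genes was 0.14 in the libraries labelled set 1, −0.49 in set 2 and −0.40 in Huh7, against 0.00, 0.01 and 0.00 over all genes tested. The CPM of the groups did not overlap for 8 of the 9 genes in the libraries labelled set 1, where 59.4% of all tested genes were apart in this way. The same held for 8 of 9 in set 2, at 70.0% of all genes, and for 7 of the 8 tested in Huh7, at 58.8%. Since so many of all genes passed, the number of members called is not read as a property of these genes, and the sizes of their changes are given below.

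**Figure D1:**
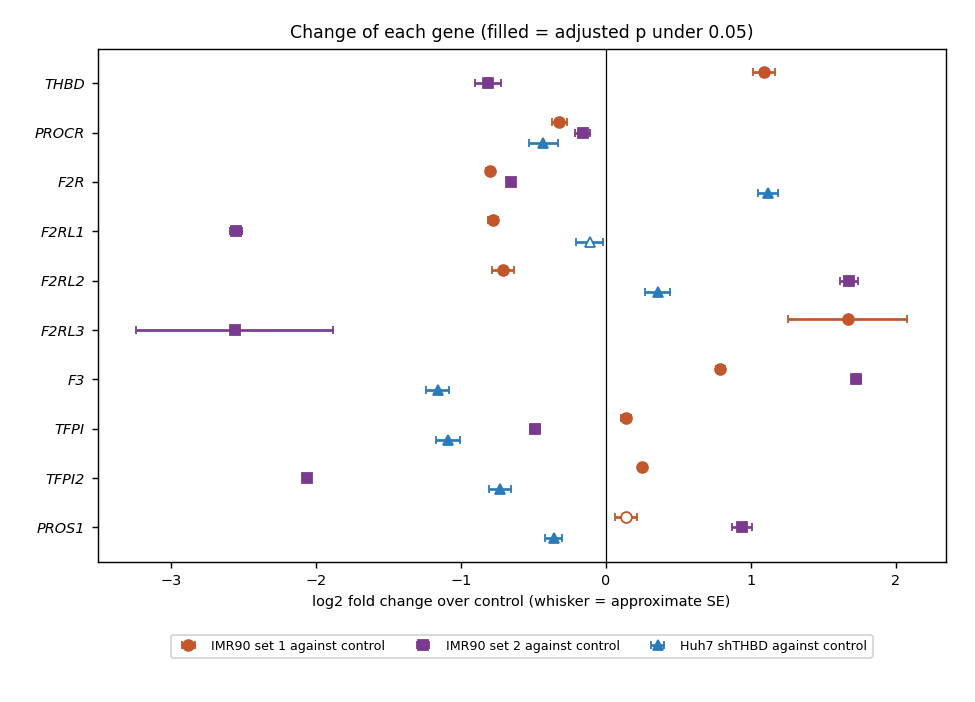
The log2 fold change of each gene over control (x axis, whiskers are approximate SE) is drawn for the libraries labelled set 1, set 2 and Huh7 shTHBD, with filled symbols for an adjusted p under 0.05. F2RL1, F2RL2 and TFPI2 lie farther from 0 in set 2 (−2.55, 1.68 and −2.06) than in the libraries labelled set 1 (−0.78, −0.71 and 0.25), and F3 lies right of 0 in both IMR90 sets and left of it in Huh7. F2RL3 is drawn for completeness and counts as no call.

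The sequences upstream of 4 genes are shown because these genes reached 5 CPM in IMR90 and changed at least 2-fold in set 2, and because the text returns to how they moved. They are from RefSeq (GRCh38.p14), which held 8 of the 10 genes in its promoter table, and run 5′ to 3′ on the strand of the gene, ending at the gene model of the IMR90 table. They cover chr5:76818780-76818932 on the plus strand for F2RL1, and on the minus strand chr5:76623414-76623653 for F2RL2, chr1:94541760-94542009 for F3 and chr7:93890754-93891003 for TFPI2. Capitals mark TGANTCA, the binding motif of the AP-1 factors (Fos and Jun proteins), which reads the same on both strands.
F2RL1: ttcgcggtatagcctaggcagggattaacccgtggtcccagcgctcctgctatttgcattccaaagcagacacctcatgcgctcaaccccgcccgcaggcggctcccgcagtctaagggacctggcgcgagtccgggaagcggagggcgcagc
F2RL2: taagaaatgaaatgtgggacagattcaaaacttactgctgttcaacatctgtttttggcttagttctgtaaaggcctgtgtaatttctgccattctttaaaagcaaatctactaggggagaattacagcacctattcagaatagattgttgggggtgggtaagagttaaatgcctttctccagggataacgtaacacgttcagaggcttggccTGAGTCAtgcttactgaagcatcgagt
F3: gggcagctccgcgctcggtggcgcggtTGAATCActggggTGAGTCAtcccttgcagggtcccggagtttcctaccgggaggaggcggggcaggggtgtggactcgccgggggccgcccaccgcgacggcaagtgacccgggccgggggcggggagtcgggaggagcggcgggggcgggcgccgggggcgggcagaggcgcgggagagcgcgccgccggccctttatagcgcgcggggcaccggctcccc
TFPI2: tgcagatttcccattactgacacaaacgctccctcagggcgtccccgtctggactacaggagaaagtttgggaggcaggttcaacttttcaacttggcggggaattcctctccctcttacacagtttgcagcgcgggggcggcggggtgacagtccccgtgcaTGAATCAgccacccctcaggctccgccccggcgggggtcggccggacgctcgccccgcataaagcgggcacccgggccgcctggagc
In the 250 bases before the RefSeq start, the motif was present 2 times in F3, its first bases 223 and 210 bases upstream, once in F2RL2, 37 bases upstream, and once in TFPI2, 87 bases upstream. It was not in the window of F2RL1, nor in those of PROCR, F2RL3, TFPI and PROS1. The windows of TFPI and PROS1 lie inside the gene models of the IMR90 table, so they do not cover the bases before those models. In F2RL1, 97 of the 250 bases lie inside the model, and in F2RL2 10 bases do, and these are not printed. Of 35116 promoters of the same length, 6.57% held it. The GC box GGGCGG, searched on both strands, was present 4 times in F3 and 2 times each in F2RL1, TFPI2, PROCR and PROS1, and 42.6% of all promoters held it. A match shows the letters only, and F3 and F2RL2, which were higher in set 2, and TFPI2, which was lower, all held the AP-1 motif.

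THBD, a gene of 1 exon at chr20:23045633-23049672 on the minus strand, is the target of the hairpins, so its level checks the labels. It stood at 39.4, 36.6 and 37.3 CPM in the libraries labelled set 1, at 10.5, 11.5 and 11.4 CPM in set 2 and at 16.5, 18.8 and 20 CPM in control. The 3 groups did not overlap: the libraries labelled set 1 were the highest, against their label, and set 2 the lowest. THBD was 2.12-fold higher in the libraries labelled set 1 (log2 1.09 ± 0.0764 SE, adjusted p = 1.2e-20) and 1.76-fold lower in set 2 (log2 −0.81 ± 0.0905, adjusted p = 1.5e-12). In Huh7 it had 0 counts in each of the 3 shTHBD libraries, where a limit of 3 counts equals 0.119 to 0.133 CPM, and 0, 0 and 6 counts in control. It was too low to be tested there, so the knockdown in Huh7 could not be checked in these counts. No other gene of the table overlaps THBD.

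PROCR, whose product presents protein C to the thrombin and thrombomodulin complex, was lower in all 3 comparisons. It had 47.4, 50.4 and 52.8 CPM in the libraries labelled set 1, at 61.1, 59.9 and 64.2 CPM in set 2 and at 66.9, 64.4 and 64 CPM in control. The libraries labelled set 1 lay below both other groups, while set 2 overlapped control. The log2 fold change was −0.32 ± 0.0504 in libraries labelled set 1 (adjusted p = 1.3e-07) and −0.16 ± 0.0494 in set 2 (adjusted p = 0.00344), where upper-quartile scaling ended the call (log2 −0.09, adjusted p = 0.0937). In Huh7 it was at 21.1, 22.6 and 18.6 CPM with shTHBD and 27.7, 28.6 and 26.3 CPM in control, and fell 1.35-fold (log2 −0.43 ± 0.1, adjusted p = 4.4e-04). The Huh7 groups did not overlap.

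PROS1 encodes protein S, the cofactor of activated protein C, which also assists TFPI and is a ligand of the TAM receptor kinases. Its level was 22.2, 21.9 and 22.6 CPM in the libraries labelled set 1, 42.3, 42.4 and 43.1 CPM in set 2 and 20.3, 23.4 and 19.2 CPM in control. Set 2 stood clear of the other groups, and the libraries labelled set 1 lay within the control range. PROS1 rose 1.92-fold in set 2 (log2 0.94 ± 0.0709, adjusted p = 1.1e-19). In the libraries labelled set 1 the log2 fold change was 0.14 ± 0.0763 (adjusted p = 0.104), and it passed at 0.23 (adjusted p = 0.0189) without control replicate 2. In Huh7 PROS1 was the highest of the 10 genes per length of transcript, at 268, 272 and 263 CPM with shTHBD and 328, 358 and 322 CPM in control, and fell 1.28-fold (log2 −0.36 ± 0.0557, adjusted p = 1.8e-06). The 2 Huh7 groups did not overlap.

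F2R, at chr5:76716126-76735770, fell in both IMR90 sets and rose in Huh7. It had 229, 247 and 233 CPM in the libraries labelled set 1, at 292, 294 and 278 CPM in set 2 and at 420, 434 and 427 CPM in control. Every library of the 2 sets lay below every control library, and the libraries labelled set 1 lay below set 2. F2R was 1.74-fold lower in the libraries labelled set 1 (log2 −0.80 ± 0.0278, adjusted p = 1.7e-37) and 1.57-fold lower in set 2 (log2 −0.65 ± 0.0275, adjusted p = 3.1e-33). In Huh7 F2R was at 117, 123 and 121 CPM with shTHBD and at 55.1, 54.2 and 53.3 CPM in control, a 2.17-fold rise (log2 1.12 ± 0.0673, adjusted p = 1.3e-15). The spread within each Huh7 group was small beside the gap between them.

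F2RL1, the PAR2 gene, showed one of the larger falls in set 2. It had 152, 148 and 146 CPM in the libraries labelled set 1, at 44.2, 52.6 and 46.6 CPM in set 2 and at 266, 260 and 267 CPM in control. The groups did not overlap, and set 2 was the lowest. F2RL1 fell 5.86-fold in set 2 (log2 −2.55 ± 0.0397, adjusted p = 5.4e-60), where 1.77% of the 15411 genes tested changed by more. It fell 1.71-fold in the libraries labelled set 1 (log2 −0.78 ± 0.0342, adjusted p = 1.6e-31). In Huh7 F2RL1 was at 27.8, 29.1 and 27.1 CPM with shTHBD and at 30.5, 30.5 and 27.8 CPM in control. These groups overlapped, and the log2 fold change was −0.11 ± 0.0927 (adjusted p = 0.328).

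F2RL2 encodes PAR3, known in mouse platelets as a helper that presents thrombin to PAR4. It moved opposite ways in the IMR90 sets, with 13.2, 16.1 and 13.3 CPM in the libraries labelled set 1, 82, 82 and 81 CPM in set 2 and 22.9, 24.1 and 25.2 CPM in control. The 3 groups did not overlap, and the set 2 libraries lay close together. F2RL2 was 1.63-fold lower in the libraries labelled set 1 (log2 −0.71 ± 0.0766, adjusted p = 1.4e-12) and 3.2-fold higher in set 2 (log2 1.68 ± 0.0613, adjusted p = 7.5e-37). In Huh7 it was at 62.2, 51.5 and 64.4 CPM with shTHBD and at 46.9, 46.1 and 43.1 CPM in control, a rise of 1.28-fold (log2 0.36 ± 0.0867, adjusted p = 6.8e-04) without overlap. F2RL2 lies within IQGAP2, on the other strand, and the 2 genes share 87 exon bases, 2.55% of the F2RL2 exons. The IMR90 counts were made without strand, and whether the Huh7 counts were is not known here. IQGAP2 had 5.05 CPM in the libraries labelled set 1, 0.703 CPM in set 2 and 4.47 CPM in control, so it was low where F2RL2 was high. In Huh7 IQGAP2 averaged 121 CPM with shTHBD and 130 CPM in control (log2 −0.13, adjusted p = 0.115).

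F2RL3, the PAR4 gene, was near the limit of detection. It had 30, 34 and 31 counts in the libraries labelled set 1, 0, 2 and 3 counts in set 2 and 7, 16 and 8 counts in control. The libraries labelled set 1 were the highest and set 2 the lowest, without overlap, and only the libraries labelled set 1 reached the filter of 0.524 CPM in all 3 replicates. Since the gene was kept through the group where it was high, its fitted log2 fold change of 1.67 ± 0.41 in the libraries labelled set 1, and that of −2.56 ± 0.68 in set 2, are given as a description, with no test. The set 2 value rests on 5 counts in all, and with only set 2 and control in the fit the gene was not kept. In Huh7 F2RL3 had 3, 0 and 0 counts with shTHBD and 0 in every control library, and was not tested.

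**Figure D2:**
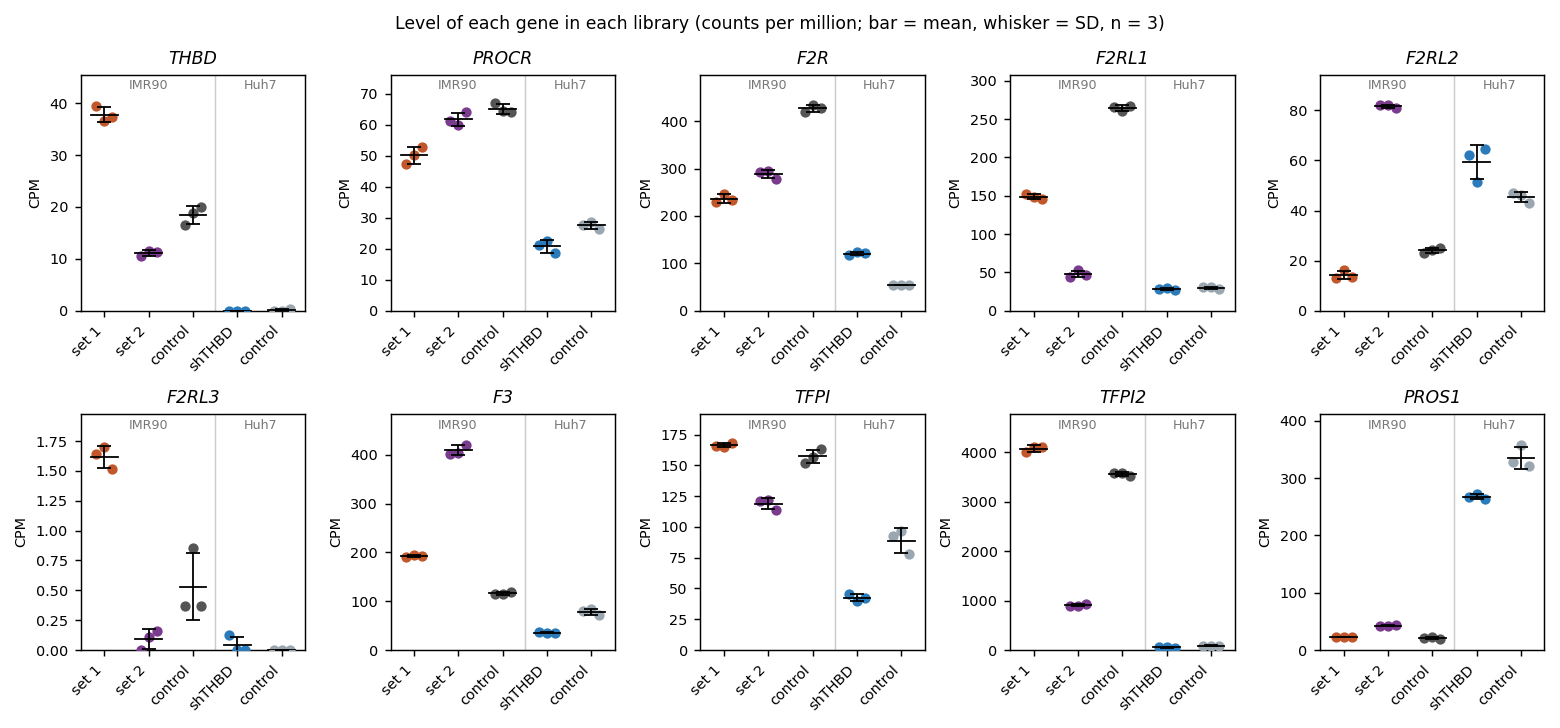
Each panel shows 1 gene, with CPM (y axis, from 0) for each library of the libraries labelled set 1, set 2 and control in IMR90 and of shTHBD and control in Huh7; points are libraries, the bar is the mean and the whisker the SD (n = 3). THBD is highest in the libraries labelled set 1 and near 0 in Huh7, F3 is highest in set 2, and F2R lies below control in IMR90 and above it in Huh7.

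The makeup of the receptor RNA was compared after scaling counts to transcript length (TPM), so that receptors could be set against each other. The summed TPM of the 4 receptors was 398 ± 9.18 in the libraries labelled set 1, 388 ± 11.8 in set 2 and 732 ± 6.54 in control (SD, n = 3 each). Both sets lay below control, and the shares differed between the sets. F2R held 51.8% of the sum in the libraries labelled set 1, 64.2% in set 2 and 52.4% in control. F2RL1 held 44.1% in the libraries labelled set 1, 14.5% in set 2 and 44% in control. F2RL2 held 3.62% in the libraries labelled set 1, 21.3% in set 2 and 3.44% in control. For each of these 3 shares set 2 did not overlap control, whereas the libraries labelled set 1 did. In Huh7 the sum was 200 ± 1.83 TPM with shTHBD and 129 ± 3.84 TPM in control. F2R held 52.9% with shTHBD and 36.8% in control, F2RL1 16.7% with shTHBD and 27.3% in control, and F2RL2 30.4% with shTHBD and 35.9% in control, each without overlap. An exact two-sided permutation test of 3 libraries against 3 cannot give less than p = 0.10, the value reached by each of these differences without overlap. Adjusted over the 18 shares, sums and ratios tested, that p was 0.129.

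F3, the tissue factor gene at chr1:94529173-94541759 on the minus strand, rose in both IMR90 sets and fell in Huh7. It had 190, 195 and 193 CPM in the libraries labelled set 1, at 403, 404 and 421 CPM in set 2 and at 114, 115 and 119 CPM in control. The groups did not overlap, and set 2 was the highest. F3 was 1.72-fold higher in the libraries labelled set 1 (log2 0.79 ± 0.0314, adjusted p = 5.6e-34) and 3.32-fold higher in set 2 (log2 1.73 ± 0.0302, adjusted p = 6.5e-57). In Huh7 it was at 37.4, 35.3 and 34.4 CPM with shTHBD and at 79.6, 83.6 and 71.3 CPM in control, a 2.23-fold fall (log2 −1.16 ± 0.079, adjusted p = 3.1e-14). Each Huh7 library with shTHBD lay below each control library.

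TFPI, whose product blocks the complex of tissue factor, factor VII and factor X, changed less in IMR90. It had 166, 165 and 168 CPM in the libraries labelled set 1, at 121, 122 and 114 CPM in set 2 and at 152, 157 and 163 CPM in control. Set 2 lay below control and the libraries labelled set 1 just above it, without overlap. The log2 fold change was 0.14 ± 0.0337 in libraries labelled set 1 (adjusted p = 4.4e-04) and −0.49 ± 0.035 in set 2 (adjusted p = 1.0e-20). In Huh7 TFPI was at 45.5, 39.5 and 42.5 CPM with shTHBD and at 92.4, 96.6 and 77.6 CPM in control, and fell 2.13-fold (log2 −1.09 ± 0.0827, adjusted p = 4.3e-13). The Huh7 groups did not overlap.

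TFPI2 encodes a related inhibitor that acts on plasmin and other proteases of the extracellular matrix. It was the most abundant of the 10 genes in IMR90, with 4002, 4115 and 4112 CPM in the libraries labelled set 1, 893, 891 and 930 CPM in set 2 and 3590, 3579 and 3515 CPM in control. Set 2 stood far below the other groups, and the libraries labelled set 1 stood above control. TFPI2 fell 4.17-fold in set 2 (log2 −2.06 ± 0.0185, adjusted p = 2.6e-75) and was 1.19-fold higher in the libraries labelled set 1 (log2 0.25 ± 0.0174, adjusted p = 8.4e-21). In Huh7 it was at 59.2, 53.2 and 48.5 CPM with shTHBD and at 81.7, 89.3 and 89.8 CPM in control, and fell 1.65-fold (log2 −0.73 ± 0.0736, adjusted p = 4.0e-10) without overlap. TFPI2 shares 44 exon bases with GNGT1 on the other strand, which stayed at or under 0.473 CPM in each IMR90 group and averaged 7.23 CPM in Huh7 with shTHBD and 5.08 CPM in control.

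The number of F3 counts per TFPI count was 1.16 ± 0.0191 in the libraries labelled set 1, 3.45 ± 0.211 in set 2 and 0.739 ± 0.00963 in control (SD, n = 3 each). Both sets lay above control without overlap (exact two-sided permutation p = 0.10 each, the smallest possible). With TFPI2 added to the inhibitors the ratio was 0.0454 in the libraries labelled set 1, 0.4 in set 2 and 0.0312 in control. In Huh7 F3 and TFPI fell together, and the ratio was 0.842 ± 0.0461 with shTHBD and 0.882 ± 0.0326 in control, with overlap (exact two-sided permutation p = 0.30). With TFPI2 added, the Huh7 ratio was 0.372 ± 0.0127 with shTHBD and 0.444 ± 0.0161 in control, lower without overlap (exact two-sided permutation p = 0.10, the smallest possible). These are ratios of counts, so they compare groups and do not say which transcript was more abundant.

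**Figure D3:**
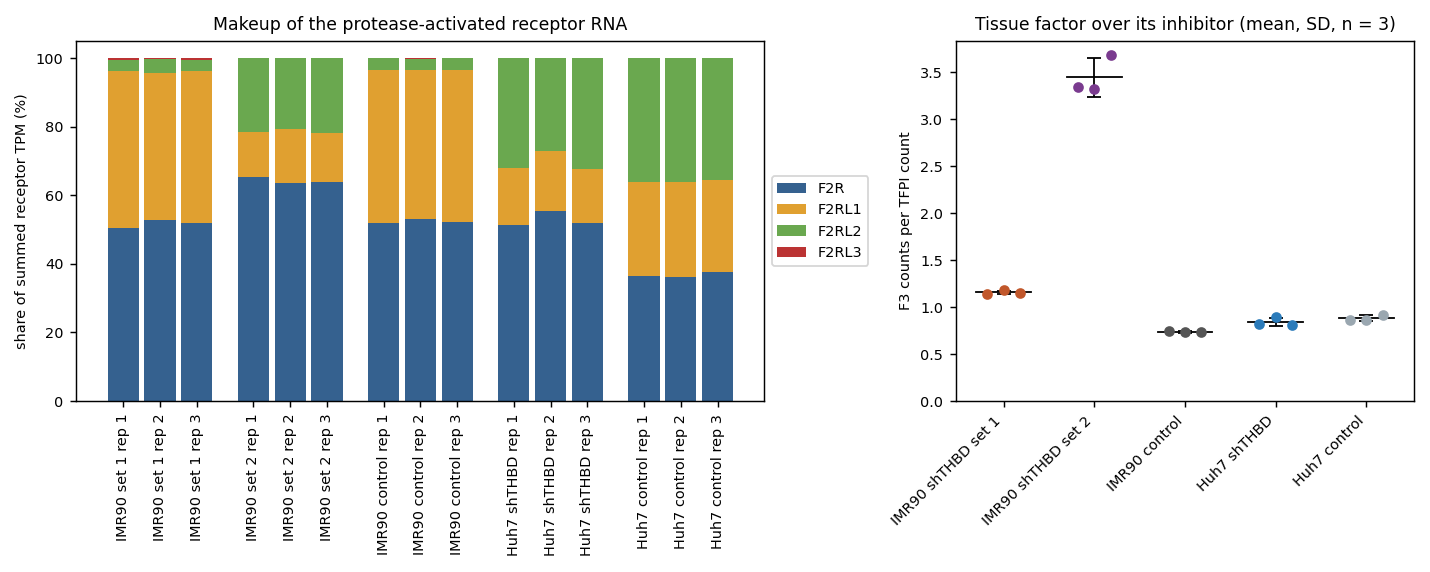
Left, the share of the summed receptor TPM (y axis, %) held by F2R, F2RL1, F2RL2 and F2RL3 in each library; right, F3 counts per TFPI count in each library, with the mean and SD (n = 3). The F2RL1 share is 14.5% in set 2 against 44% in IMR90 control, and the F3 to TFPI ratio of set 2, 3.45, stands above the 0.739 of control.

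Set against each other per transcript length, TFPI2 led the 10 genes in each IMR90 group, at 5782 TPM in the libraries labelled set 1, 1275 TPM in set 2 and 5204 TPM in control. F3 ranked next in the libraries labelled set 1 (232 TPM) and in set 2 (489 TPM), while in control it came after F2R and F2RL1, at 144 TPM against 384 TPM and 322 TPM. THBD ranked low in IMR90, at 32.4 TPM in the libraries labelled set 1, 9.48 TPM in set 2 and 16.3 TPM in control, and the last was within the library spread of PROS1. In the libraries labelled set 1, PROS1 and F2RL2 were also within each other's spread. In Huh7 the order began with PROS1, at 172 TPM with shTHBD and 214 TPM in control. F2R came next with shTHBD (106 TPM) and lay behind TFPI2, F3 and PROCR too in control (47.4 TPM), where it overlapped F2RL2. F3 was at 43.3 TPM with shTHBD, overlapping PROCR, and at 94.1 TPM in control. The exons of TFPI join many transcript forms into 11714 bases, which lowers its level per length.

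The IMR90 sets were also compared with each other, since they share a target but differed in THBD. The 9 genes other than F2RL3 passed, 4 higher and 5 lower, where 69.5% of all genes passed, 33.9% higher and 35.6% lower. The CPM of the sets did not overlap for any of the 9, as for 72.3% of all genes. In both sets the controls are the same libraries, so the changes against control given above are not independent. Relative to set 2, the libraries labelled set 1 had more THBD (log2 1.90 ± 0.0831, adjusted p = 2.5e-32), F2RL1 (1.77 ± 0.0414, adjusted p = 6.7e-49), TFPI (0.62 ± 0.0348, adjusted p = 2.3e-26) and TFPI2 (2.31 ± 0.0186, adjusted p = 1.8e-78). F2RL3 has no test here, and its counts are those given above. They had less F2RL2 (log2 −2.38 ± 0.0668, adjusted p = 5.9e-44), F3 (−0.95 ± 0.0286, adjusted p = 5.6e-42) and PROS1 (−0.80 ± 0.0704, adjusted p = 1.4e-16). F2R and PROCR differed least, with log2 fold changes of −0.14 ± 0.0285 (adjusted p = 8.1e-06) and −0.16 ± 0.051 (adjusted p = 0.0046). The PROCR difference did not pass without set 1 replicate 1 (log2 −0.11, adjusted p = 0.0718).

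Whether a change differed between lines was tested as the log2 change of IMR90 set 2 minus that of Huh7, in 1 fit over the genes of both tables. Of the 9 genes other than F2RL3, 8 passed, 5 with a positive and 3 with a negative difference, where 44.0% of 16682 genes passed, 21.2% positive and 22.8% negative. THBD did not pass. Among the 8 genes tested within both lines, F3 differed most, rising in set 2 and falling in Huh7 (difference 2.86 ± 0.0721, adjusted p = 9.3e-29), followed by F2RL1 (−2.47 ± 0.0835, adjusted p = 1.4e-24) and F2R (−1.80 ± 0.062, adjusted p = 2.4e-24). TFPI2 fell in both lines, more so in set 2 (−1.36 ± 0.0585, adjusted p = 2.1e-21). PROS1 rose in set 2 and fell in Huh7 (1.27 ± 0.0803, adjusted p = 3.2e-16), and F2RL2 rose more in set 2 (1.29 ± 0.112, adjusted p = 2.0e-12). TFPI fell less in set 2 (0.58 ± 0.0859, adjusted p = 5.4e-07). For PROCR the difference was 0.24 ± 0.0984 (adjusted p = 0.041). By their labels the lines also differ in how senescence was induced, and line and inducer cannot be told apart. The THBD difference (3.16 ± 1.43, adjusted p = 0.0718) rests on 6 counts in 1 Huh7 control library and turned to −0.82 without it, and F2RL3 had 3 counts in 1 Huh7 shTHBD library and none in the others.

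Other genes of the protein C system were measured mainly in Huh7, since IMR90 had almost no PROC or F5 RNA. In Huh7 shTHBD against control, 0 of the 5 listed genes besides the members were higher and 4 lower (median log2 −0.33, against 0.00 over all genes, of which 27.3% were lower). The liver makes these proteins, and the hepatocyte markers summed to 4275 to 4348 CPM with shTHBD and 5615 to 5844 CPM in control, a shift whose part in the change was not tested. CPB2, the carboxypeptidase that thrombin activates on thrombomodulin, was at 22.1 ± 3.08 CPM with shTHBD and 60.1 ± 5.71 CPM in control (SD, n = 3 each), a log2 fold change of −1.47 (adjusted p = 1.3e-14). PROC, the gene of protein C itself, averaged 46.3 CPM with shTHBD and 64.6 CPM in control (log2 −0.51, adjusted p = 3.3e-06). F5, which activated protein C cuts, averaged 60.1 CPM with shTHBD and 74 CPM in control (log2 −0.33, adjusted p = 3.2e-04).

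Among thrombin and its inhibitors, 5 of 6 tested genes were lower in Huh7 and 0 higher (median log2 −1.57), where 27.3% of all genes were lower and the hepatocyte markers shifted as given above. F2, the prothrombin gene, averaged 14.5 CPM with shTHBD and 43.1 CPM in control (log2 −1.60, adjusted p = 3.1e-15), and it stayed at or under 0.232 CPM in each IMR90 group. SERPIND1, heparin cofactor II, averaged 41.8 CPM with shTHBD and 185 CPM in control (log2 −2.17, adjusted p = 1.9e-22). In IMR90 4 genes of the list were tested. The libraries labelled set 1 had 2 higher and 1 lower, where 27.3% of all genes were higher and 26.5% lower. Set 2 had 1 higher and 3 lower, where 33.2% of all genes were higher and 34.1% lower. SERPINE2, the cell-surface thrombin inhibitor protease nexin-1, was lower in both, with 121 ± 4.89 CPM in the libraries labelled set 1, 44.4 ± 1.61 CPM in set 2 and 279 ± 3.29 CPM in control (log2 −1.15 and −2.74, adjusted p = 2.6e-42 and 5.4e-63). It was lower in Huh7 too (21.3 CPM with shTHBD, 69.1 CPM in control, log2 −1.72, adjusted p = 1.3e-17). SERPINA1, alpha-1 antitrypsin, which mainly inhibits neutrophil elastase, went opposite ways in IMR90, at 134 CPM in the libraries labelled set 1, 8.8 CPM in set 2 and 16.3 CPM in control (log2 3.10 and −0.97, adjusted p = 2.7e-54 and 1.9e-16).

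In the tissue factor pathway 5 genes besides F3 and both inhibitors were tested in IMR90. In the libraries labelled set 1, 3 of them were higher and 0 lower (median log2 0.07). Of all genes, 27.3% were higher and 26.5% lower there. In set 2, 3 were higher and 2 lower (median log2 0.77), where 33.2% of all genes were higher and 34.1% lower. ANXA2, which binds phospholipid and plasminogen at the surface, averaged 5208 CPM in the libraries labelled set 1, 6064 CPM in set 2 and 3138 CPM in control (log2 0.79 and 0.87, adjusted p = 1.1e-52 and 3.8e-56). ANXA5, which covers the phospholipid that clotting needs, averaged 490 CPM in the libraries labelled set 1, 973 CPM in set 2 and 479 CPM in control (log2 0.09 and 0.94, adjusted p = 9.1e-04 and 3.0e-47). In Huh7, 2 of 6 such genes were higher and 2 lower, where 25.9% of all genes were higher and 27.3% lower. F7 averaged 10.7 CPM with shTHBD and 15.3 CPM in control (log2 −0.54, adjusted p = 0.00162), and F10 46.9 CPM with shTHBD and 65.1 CPM in control (log2 −0.50, adjusted p = 1.9e-06).

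Of 18 listed proteases known to cut these receptors, 6 were tested in IMR90. In the libraries labelled set 1, 2 were higher and 2 lower, where 27.3% of all genes were higher and 26.5% lower. In set 2, 1 was higher and 5 lower, where 33.2% of all genes were higher and 34.1% lower. MMP9, a gelatinase, had 152 ± 3.51 CPM in the libraries labelled set 1, 2.14 ± 0.505 CPM in set 2 and 10.9 ± 0.727 CPM in control (log2 3.86 and −2.42, adjusted p = 1.0e-58 and 1.4e-27). MMP1, a collagenase that can cut PAR1, averaged 5093 CPM in the libraries labelled set 1, 2531 CPM in set 2 and 3450 CPM in control (log2 0.62 and −0.53). CTSS, cathepsin S, which can cut PAR2, averaged 80.6 CPM in the libraries labelled set 1, 27.1 CPM in set 2 and 127 CPM in control (log2 −0.60 and −2.31, adjusted p = 9.9e-20 and 7.1e-50). In Huh7, 6 of 8 tested proteases were lower and 0 higher, where 27.3% of all genes were lower. Several of them are made by the liver, and 6 of the 8 hepatocyte markers had a lower mean with shTHBD, as given above. The part of that shift in the protease levels was not tested. The 6 include HPN, the liver protease hepsin (41.2 CPM with shTHBD, 64.7 CPM in control, log2 −0.68, adjusted p = 1.1e-07).

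All 25 listed genes of receptor coupling and desensitisation were tested in IMR90. In the libraries labelled set 1, 7 were higher and 7 lower (median 0.00), where 27.3% of all genes were higher and 26.5% lower. In set 2, 10 were higher and 11 lower (median −0.04), where 33.2% of all genes were higher and 34.1% lower. The list also holds EDN1, the vasoconstrictor endothelin-1, which is a secreted ligand and no coupling protein. It averaged 6.84 CPM in the libraries labelled set 1, 19.2 CPM in set 2 and 3.54 CPM in control, and rose in both (log2 1.01 and 2.35). CAV1, the caveolin of membrane pits in which protease-activated receptors gather, averaged 75.3 CPM in the libraries labelled set 1, 233 CPM in set 2 and 85 CPM in control, and rose in set 2 (log2 1.37, adjusted p = 9.9e-45). PLCB3, a phospholipase C driven by Gq, averaged 98.1 CPM in the libraries labelled set 1, 48.2 CPM in set 2 and 106 CPM in control (set 2 log2 −1.22, adjusted p = 2.4e-37). ARRB1, an arrestin that ends or redirects receptor signalling, averaged 33.2 CPM in the libraries labelled set 1, 16.2 CPM in set 2 and 24.2 CPM in control, higher in the first and lower in set 2 (log2 0.51 and −0.66, adjusted p = 5.0e-09 and 2.0e-11). In Huh7, 10 of 24 tested genes were higher and 7 lower, where 25.9% of all genes were higher and 27.3% lower. GNAI2, a Gi subunit, was at 77.6 CPM with shTHBD and 135 CPM in control (log2 −0.82, adjusted p = 2.1e-12). GNAQ, the Gq subunit, was at 155 CPM with shTHBD and 97.5 CPM in control (log2 0.64, adjusted p = 2.2e-09).

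Of 25 genes besides F3 known to respond to thrombin, the libraries labelled set 1 had 13 higher and 9 lower (median log2 0.18). Of all genes, 27.3% were higher and 26.5% lower there. Set 2 had 8 higher and 14 lower (median log2 −0.21), where 33.2% of all genes were higher and 34.1% lower. PTGS2, cyclooxygenase-2, averaged 120 CPM in the libraries labelled set 1, 29 CPM in set 2 and 265 CPM in control (log2 −1.09 and −3.27, adjusted p = 4.2e-40 and 2.5e-65). CCL2, a monocyte chemokine, averaged 34.1 CPM in the libraries labelled set 1, 71.1 CPM in set 2 and 139 CPM in control (set 1 log2 −1.97, adjusted p = 6.0e-48). PDGFB, a growth factor for fibroblasts, averaged 2.43 CPM in the libraries labelled set 1, 0.141 CPM in set 2 and 6.69 CPM in control. In Huh7, 4 of 23 such genes were higher and 11 lower, where 25.9% of all genes were higher and 27.3% lower. HBEGF, an EGF-receptor ligand, averaged 105 CPM with shTHBD and 31 CPM in control (log2 1.73, adjusted p = 2.8e-19), and PLAU, urokinase, 7.21 CPM with shTHBD and 23.7 CPM in control (log2 −1.74, adjusted p = 1.0e-12).

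All 19 listed regulators of thrombomodulin transcription were tested in both lines. In the libraries labelled set 1, 9 were higher and 4 lower (median 0.07), where 27.3% of all genes were higher and 26.5% lower. In set 2, 6 were higher and 9 lower (median −0.12), where 33.2% of all genes were higher and 34.1% lower. Both counts of higher genes include RARB, which reached the filter on low counts only through these sets, where it was high. Its IMR90 values are a description with no test. KLF2, the factor that drives thrombomodulin in endothelium under flow, averaged 6.43 CPM in the libraries labelled set 1, 2.44 CPM in set 2 and 6.58 CPM in control (set 2 log2 −1.51, adjusted p = 3.4e-12). NR1H2, a liver X receptor, averaged 99.7 CPM in the libraries labelled set 1, 33.7 CPM in set 2 and 89.1 CPM in control (set 2 log2 −1.49, adjusted p = 5.3e-39). MEF2C averaged 2.21 CPM in the libraries labelled set 1, 10.9 CPM in set 2 and 4.68 CPM in control. Opposite to THBD, it was lower in the first and higher in set 2 (log2 −1.03 and 1.13, adjusted p = 1.9e-06 and 2.0e-10). KLF6 was higher in both sets, at 168 CPM in the libraries labelled set 1, 173 CPM in set 2 and 118 CPM in control. In Huh7, 7 were higher and 7 lower, where 25.9% of all genes were higher and 27.3% lower. RARB, a retinoic acid receptor, was at 147 CPM with shTHBD and 56.6 CPM in control there (log2 1.35, adjusted p = 1.3e-17).

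The 3 listed relatives of thrombomodulin, CD93, CLEC14A and CD248, are membrane proteins with a lectin-like outer domain. CD93 averaged 17 CPM in the libraries labelled set 1, 0.813 CPM in set 2 and 1.48 CPM in control (log2 3.55 and −0.96, adjusted p = 9.3e-31 and 0.00174). CLEC14A averaged 0.39 CPM in the libraries labelled set 1, 6.14 CPM in set 2 and 0.479 CPM in control. It passed the filter on low counts only through set 2, where it was high, so these levels are a description with no test. CD248, a fibroblast member of the family, averaged 128 CPM in the libraries labelled set 1, 109 CPM in set 2 and 137 CPM in control (set 2 log2 −0.42, adjusted p = 1.3e-16).

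**Figure D4:**
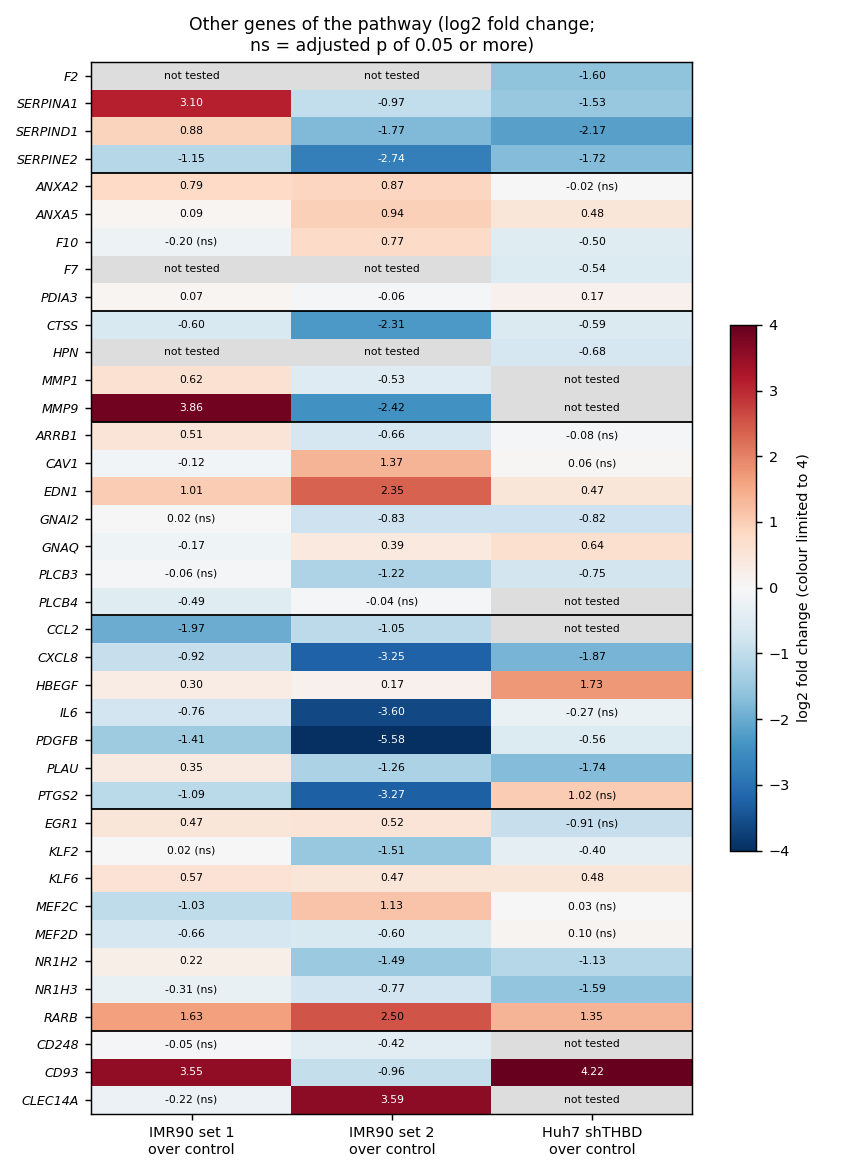
Log2 fold changes over control (colour and printed value) of the other pathway genes named by the rule, in blocks from thrombin and its inhibitors at the top to the lectin-like relatives at the bottom, for the libraries labelled set 1, set 2 and Huh7 shTHBD. SERPINE2 is negative in all 3 columns, and MMP9 and SERPINA1 are positive in the libraries labelled set 1 and negative in set 2. The values of PDGFB in set 2 and of CD93 in Huh7 are fitted from counts at or near the limit of detection and are not used as folds. CLEC14A and RARB in IMR90, and CD93 and PTGS2 in Huh7, reached the filter on low counts in shTHBD groups and not in every control library. Their values there are a description.

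Over the 9 IMR90 libraries, the log2 CPM pattern of THBD was most like those of AXL (Pearson r = 0.997), DBNDD1 (0.996) and ULBP3 (0.995) among 10225 genes with at least 5 CPM. AXL averaged 247 CPM in the libraries labelled set 1, 97.1 CPM in set 2 and 139 CPM in control, the same order as THBD. F2R was most like MOV10 (0.997), LAMA4 (0.996) and CHD3 (0.995), and LAMA4 averaged 157 CPM in the libraries labelled set 1, 192 CPM in set 2 and 296 CPM in control. F3 was most like NCEH1 (0.999), MEG3 (0.998) and RAN (0.998), and NCEH1 averaged 160 CPM in the libraries labelled set 1, 226 CPM in set 2 and 127 CPM in control. The 9 libraries fall into the 3 groups, so these values describe the order of 3 levels and carry no test.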

How the data were processed

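Bulk RNA-seq covered 15 libraries. The authors deposited 1 table of unnormalized gene counts for each line, with exon length and position beside the counts. The submitters' processing notes name fastp for trimming, STAR with GRCh38 for alignment and featureCounts for counting. Per the file headers, IMR90 was counted by featureCounts 2.0.1 on GENCODE 38, in paired fragments per gene name and without strand. The Huh7 annotation and counter version, not given in the sources used here, may be others: exon models differed for THBD (4109 bases in Huh7, 4040 in IMR90) and PROS1 (5444 in Huh7, 5270 in IMR90). Titles and labels set the groups, and no sample column was left unused.

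CPM used raw totals, and TPM used the tables' exon lengths. Tests were edgeR 4.0.16 quasi-likelihood fits in R 4.3.3, with the filterByExpr filter, TMM factors and a Benjamini-Hochberg adjusted p under 0.05. One fit held the 9 IMR90 libraries, another the 6 Huh7 libraries, and a joint fit of 38415 shared symbols gave the difference between lines. SE, the size of the log2 fold change divided by the root of F, is approximate and may be too small where counts are few. Dispersion as a common coefficient of variation came to 3.13% (IMR90), 8.2% (Huh7) and 5.48% (joint). The joint fit shares its spread between the lines, so SE and p of the differences between lines may be too small for Huh7. The code was tested on simulated counts with planted changes. A limit of 3 counts reflects counting alone. The 10 members and the gene lists were chosen with earlier results of these data known. Beyond the members, genes could be named as the up to 3 per list and comparison with the largest called changes at a mean of at least 5 CPM, the 3 most like THBD, F2R and F3, and genes that overlap a member; a gene so named is also given in other comparisons. Alternatives were DESeq2 1.42.0 (size factors, and its test), upper-quartile scaling, limma 3.58.1 voom, no filter, only the compared groups, blocking on replicate number, and each library left out in turn.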

Additional observations from a re-analysis of the deposited data

Results flagged for a closer look

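The change in IMR90 set 2 differed from the change in Huh7, by a test of the difference itself, for each of the 8 genes tested in both lines, where 44.0% of all genes did. The differences, given as the log2 change in IMR90 set 2 minus that in Huh7, were 2.86 for F3, −2.47 for F2RL1, −1.80 for F2R, −1.36 for TFPI2, 1.29 for F2RL2, 1.27 for PROS1, 0.58 for TFPI and 0.24 for PROCR. For F3, F2R and PROS1 the change passed the test in both lines with opposite signs. For F2RL2, TFPI, TFPI2 and PROCR it passed in both lines with the same sign and a different size, and F2RL1 passed in set 2 and not in Huh7. The PROCR difference no longer passed without the filter on low counts (adjusted p = 0.0692) or without some single libraries. The lines were made senescent in different ways, so line and inducer cannot be told apart.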

How the results depend on the processing

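Of 785 log2 fold changes of the 10 genes recomputed under alternatives, 763 kept their direction and side of the threshold, 17 no longer passed, 4 newly passed and 1 reversed. The reversal was the THBD difference between lines, −0.82 without Huh7 control replicate 3, the library that holds all 6 of its Huh7 counts. That difference passed under the replicate block (3.05, adjusted p = 0.0469) and without Huh7 control replicate 1 or 2 (3.70 and 3.71). Of the losses, 6 were of the F2RL3 difference between lines, which rests on 3 Huh7 counts and is used as no call. The PROCR difference was lost without the filter and under 8 of the settings that leave out 1 library (adjusted p 0.0507 to 0.12). The cause of the PROCR losses was not tested.

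Counts of genes called stayed within 1.5 times of those reported: 7633 to 8429 in the libraries labelled set 1, 9833 to 10502 in set 2, 10207 to 10894 between sets, 8391 to 9368 in Huh7 and 6803 to 7428 between lines. Members called, here with F2RL3 counted, numbered 9 to 10 in each IMR90 comparison, 7 in Huh7 and 7 to 10 between lines. Upper-quartile scaling moved the median of all genes between the sets to −0.13, against −0.03. Same-numbered libraries did not deviate together (correlations −0.0132 to 0.0289 in IMR90 and −0.241 to −0.0562 in Huh7), so the numbers gave no sign of pairing. With 3 libraries per group this cannot show that they were unpaired. With the replicate block, 8237 genes were called in the libraries labelled set 1, 10317 in set 2 and 8784 in Huh7, and beyond the THBD difference no call of a member changed. Depth limits F2RL3 in IMR90, and THBD and F2RL3 in Huh7.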
